A study of Mus musculus with 25 samples.

Results

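Mast cells and basophils are the cells that carry IgE on their surface, and this account follows 10 of their genes through 25 mouse lung libraries of an allergic airway model. The genes were taken by symbol from the 55421 genes of the count table, and all 10 were found there. They encode the chymase-type proteases Mcpt1, Mcpt2, Mcpt4 and Cma1, the tryptases Tpsb2 and Tpsab1, the mast cell carboxypeptidase Cpa3, the basophil protease Mcpt8, and the alpha and beta subunits of the high-affinity IgE receptor, Fcer1a and Ms4a2. All mice were female and wild type, with the strain labelled C57BL/6J (the design text writes C57BL/6cmdb). Saline or extract of house dust mite, a source of inhaled allergens, was given into the nose. A 2-week model held groups of saline, 10 µg and 100 µg, and a 12-week model held groups of saline and 100 µg, with 5 mice in each of the 5 groups. RNA came from whole lung lobes, so the model and the time of killing changed together and fewer cells of a type cannot be told apart from less RNA per cell.

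Mast cells bind IgE through a receptor of an alpha, a beta and a signalling gamma chain, and antigen that bridges the bound IgE releases stored proteases and histamine. In the mouse they come in a connective tissue type, which sits around large airways and vessels and stores Mcpt4, Cma1, Tpsb2 and Cpa3, and a mucosal type, which appears in epithelia during type 2 immunity and stores Mcpt1 and Mcpt2. Basophils are circulating cells that share the IgE receptor and make Mcpt8.

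Several libraries need naming before the results. In 24 libraries the total was between 25.4 M and 51.9 M (mega) counts, and replicate 4 of saline at 2 weeks held 7.23 M, where a low gene can be missed. The libraries labelled saline at 12 weeks held several genes of allergic inflammation at higher levels than saline at 2 weeks. Il13, a type 2 cytokine, averaged 0.823 ± 0.534 CPM in them (SD, n = 5; CPM, counts scaled to 1000000 per library with TMM size factors), against 0.532 ± 0.298 at 100 µg and 12 weeks and 0.0539 ± 0.102 in saline at 2 weeks. Of 6 eosinophil markers 4 were called higher and 0 lower in them than in saline at 2 weeks, where 54.1% of all genes were called. Prg3, another of these markers, averaged 0.199 against 0.249 CPM. A wrong label cannot be told apart here from the model and the time of killing, and was not tested. These libraries are called labelled saline, or saline-labelled, here, and comparisons that use them are read with that doubt. Replicate 5 of 100 µg at 2 weeks held cartilage and basal airway genes (Col2a1, Acan, Cnmd and Krt5) at a sum of 3.61 CPM, against 0 to 0.564 CPM in the other 24 libraries. Those genes were picked from a list of 8 for large airway, cartilage and pleura. Its other genes, Msln, Upk3b, Actg2 and Des, had higher levels in every group and were not read for this library. Replicate 2 of 100 µg at 12 weeks was the library of its group with no count of Mcpt1 or Mcpt2.

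The genes Mcpt1, Mcpt2, Mcpt4, Mcpt8 and Cma1 lie together on chromosome 14 (GRCm38). Mcpt1 runs from 56017971 to 56020384 on the plus strand, Mcpt2 from 56042041 to 56044642 on the plus strand, and Mcpt4 from 56059629 to 56062313 on the minus strand. The starts of their coding sequences are shown because these near copies behaved differently in the lung. They are the first 90 coding bases from the GENCODE M21 transcripts, and capitals mark bases that differ from Mcpt1.
Mcpt1: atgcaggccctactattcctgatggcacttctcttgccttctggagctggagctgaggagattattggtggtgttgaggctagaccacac
Mcpt2: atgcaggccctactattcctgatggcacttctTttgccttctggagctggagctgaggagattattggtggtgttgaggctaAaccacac
Mcpt4: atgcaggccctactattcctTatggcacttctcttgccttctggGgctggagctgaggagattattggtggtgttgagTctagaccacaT
Mcpt2 differed from Mcpt1 at 2 of these bases and Mcpt4 at 4. Over the aligned coding sequence the identity to Mcpt1 was 82.1% for Mcpt2 and 86.4% for Mcpt4. No window of 50 bases was shared between the transcripts compared for any 2 of the chymase and tryptase members, although shorter shared stretches can still let a read fit more than 1 gene, and the counter's treatment of such reads is not given in the sources used here.

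The promoters of Mcpt1 and Mcpt4 are shown for the same reason. They are the 250 bases before the start in the RefSeq table (GRCm38.p6), read on the strand of the gene. Capitals mark the match to a binding motif of GATA factors, which control mast cell and basophil genes. The search took AGATAA and, as a further form, TGATAA, also either of them with G as the last letter, on both strands. It was the single motif searched, so no other overlapped it.
Mcpt1, chr14:56017714-56017963, plus strand: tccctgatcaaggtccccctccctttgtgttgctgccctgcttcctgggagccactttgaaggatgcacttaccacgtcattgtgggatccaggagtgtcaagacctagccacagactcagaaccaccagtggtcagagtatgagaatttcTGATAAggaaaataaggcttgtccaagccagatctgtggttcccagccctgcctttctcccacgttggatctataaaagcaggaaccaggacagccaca
Mcpt4, chr14:56062311-56062560, minus strand: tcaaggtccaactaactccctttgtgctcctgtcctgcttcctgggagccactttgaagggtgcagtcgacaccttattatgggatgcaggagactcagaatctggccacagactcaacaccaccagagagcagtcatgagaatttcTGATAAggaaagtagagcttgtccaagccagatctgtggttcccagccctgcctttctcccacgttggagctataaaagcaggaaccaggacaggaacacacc
Cpa3, chr3:20242182-20242431, minus strand: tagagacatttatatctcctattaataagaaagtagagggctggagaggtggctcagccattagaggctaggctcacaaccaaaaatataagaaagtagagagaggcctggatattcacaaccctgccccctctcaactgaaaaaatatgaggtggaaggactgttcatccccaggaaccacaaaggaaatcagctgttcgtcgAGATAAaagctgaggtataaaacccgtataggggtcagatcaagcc
The match lay 99 bases before the start in Mcpt1, 103 in Mcpt4 and 46 in Cpa3, the carboxypeptidase whose promoter is shown as a member of another family. Of the 7 members in the table, 6 held a match, against 26.5% of 32851 promoters of the same length. Mcpt8 held no match in this window. Promoters of Mcpt2, Tpsb2 and Tpsab1 were not used here.

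All 10 genes were low in whole lung. Scaled by exon length, Cma1 was highest at a mean of 1.28 CPM per kb over the 25 libraries, followed by Cpa3 at 0.615 and Ms4a2 at 0.322. Mcpt1 averaged 0.297, Mcpt2 0.259, Mcpt4 0.232, Tpsb2 0.196, Fcer1a 0.172 and Mcpt8 0.121 CPM per kb. Tpsab1 closed the order at 0.00304 CPM per kb, with 6 counts in all. Mice of the C57BL/6 background are known to carry a splice-site mutation in Tpsab1 that removes its tryptase. From Ms4a2 to Mcpt8 the means of neighbours lay within the spread between libraries. This order pools groups that differ. At 100 µg and 12 weeks Mcpt1 averaged 0.856 ± 0.824 and Mcpt2 0.75 ± 0.73 CPM per kb (SD, n = 5). Cpa3 averaged 0.444 ± 0.29 and Ms4a2 0.243 ± 0.128 there. In the libraries labelled saline at 12 weeks Mcpt1 averaged 0.601 ± 0.311 and Mcpt2 0.534 ± 0.273. Cpa3 averaged 0.512 ± 0.185 and Ms4a2 0.179 ± 0.0656 in the same libraries. In both groups the means of Mcpt1 and Mcpt2 differed from that of Cpa3 by less than the spread between mice. At 2 weeks the group means of Mcpt1 and Mcpt2 were at most 0.0174. Filtering on low counts kept 7 of the 10 genes for the fit across all genes, and Mcpt8, Tpsab1 and Fcer1a were left out of it and tested alone. Mcpt1 and Mcpt2 passed the filter through the 12-week libraries, so their passing is no evidence for a difference.

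**Figure D1:**
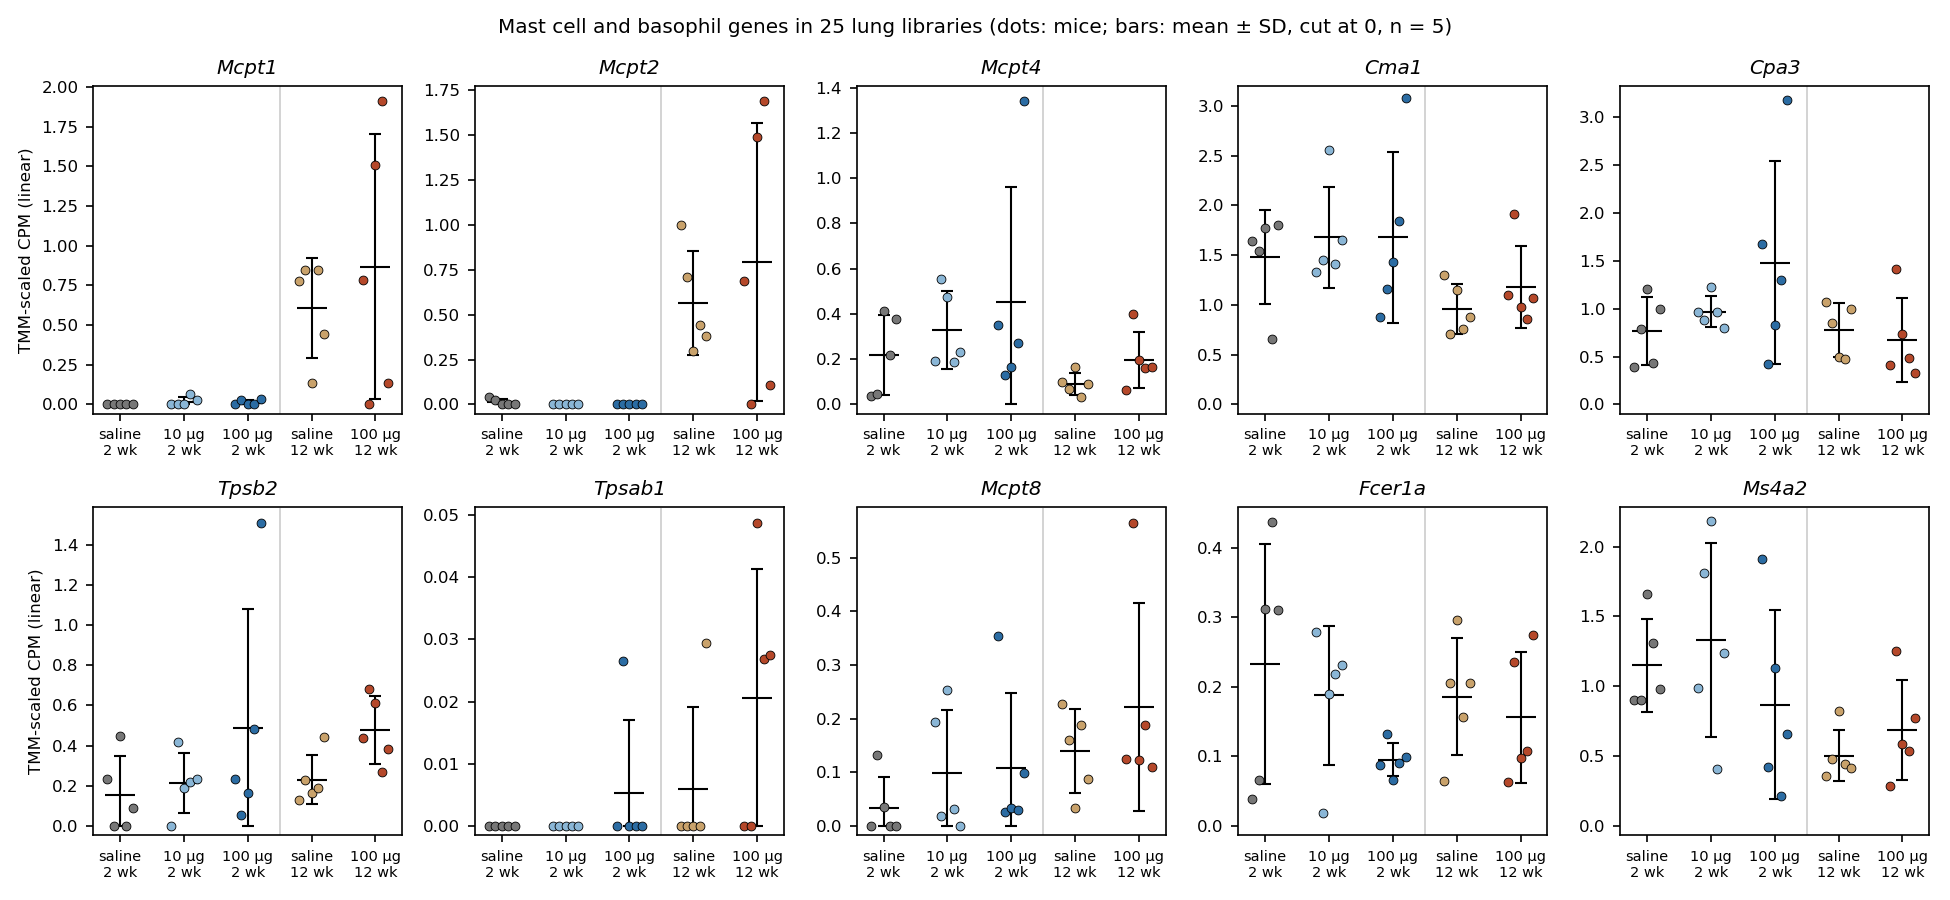
Level of each of the 10 genes (vertical axis, CPM, linear) in the 5 groups (horizontal axis), with 1 dot per mouse and the mean ± SD (n = 5). Mcpt1 and Mcpt2 are near 0 in all 2-week libraries and reach 1.91 and 1.69 CPM at 12 weeks, and replicate 5 of 100 µg at 2 weeks is the highest dot of Mcpt4, Cma1, Cpa3 and Tpsb2.

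Mcpt1 and Mcpt2, the mucosal mast cell proteases, were nearly absent from every 2-week lung and present in 9 of 10 lungs at 12 weeks. Mcpt1 had 5 counts in 4 of the 15 libraries at 2 weeks and 270 counts at 12 weeks. Mcpt2 had 2 counts at 2 weeks and 248 at 12 weeks. Both genes were found in lungs labelled saline and in lungs given 100 µg at 12 weeks.

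Mcpt1 stood at 0 CPM in each of the 5 saline lungs at 2 weeks. In the 5 lungs given 10 µg it was 0, 0, 0, 0.0625 and 0.0258 CPM, and in those given 100 µg for 2 weeks 0, 0.0265, 0, 0 and 0.0328 CPM. The 12-week libraries labelled saline held 0.777, 0.847, 0.132, 0.848 and 0.442 CPM, and those of 100 µg held 0.782, 0, 1.51, 1.91 and 0.138 CPM. Each library labelled saline at 12 weeks was above each 2-week library, while at 100 µg and 12 weeks replicate 2 fell among the 2-week values. The mean of 100 µg at 12 weeks was 0.868 ± 0.836 CPM (SD, n = 5), and 1.09 ± 0.785 CPM without that replicate.

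Against saline at 2 weeks, where no count was seen, Mcpt1 was at least 31.2-fold higher in the saline-labelled libraries at 12 weeks, with the floor set at 3 counts over the group. The edgeR quasi-likelihood test gave an adjusted p of 0.000508. In lungs given 100 µg for 12 weeks Mcpt1 was at least 43.0-fold higher than in saline at 2 weeks (edgeR adjusted p = 0.000194). Between the 100 µg groups the ratio of 12 to 2 weeks was 71.4, with an exact 95% counting interval of 19.4 to 594, and the edgeR adjusted p was 0.000577. Intervals and floors cover counting error, not the spread between mice.

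Mcpt2 gave 0.0392, 0.022, 0, 0 and 0 CPM in saline at 2 weeks and 0 in all 10 lungs given extract for 2 weeks. The libraries labelled saline at 12 weeks held 1.0, 0.71, 0.296, 0.44 and 0.383 CPM, and those of 100 µg held 0.688, 0, 1.49, 1.69 and 0.11 CPM. As for Mcpt1, the saline-labelled groups did not overlap, and replicates 2 and 5 were the lowest at 100 µg and 12 weeks. The ratio of saline-labelled libraries at 12 to 2 weeks was 42.9 (exact 95% counting interval 11.6 to 359; edgeR adjusted p = 0.00265). At 100 µg Mcpt2 was at least 43.8-fold higher at 12 than at 2 weeks (edgeR adjusted p = 0.000714). Against saline at 2 weeks the ratio at 100 µg and 12 weeks was 59.4, with an interval of 16.1 to 495 and an edgeR adjusted p of 0.00103. Both genes entered these fits through the libraries in which they are high. With no filter on low counts, so that all 10 genes were tested, the edgeR adjusted p-values of the 3 comparisons ran from 1.57e-05 to 6.12e-05 for Mcpt1 and from 3.56e-05 to 0.000403 for Mcpt2, while with groups compared alone or a stricter filter neither gene was tested.

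Within 12 weeks neither gene passed the test. Mcpt1 differed by 0.50 on the log2 scale between 100 µg and the libraries labelled saline (SE 0.66, edgeR adjusted p = 0.645). Mcpt2 differed by 0.48 (SE 0.69, edgeR adjusted p = 0.67). The direction turned with limma-voom, at -0.76 for Mcpt1 and -0.88 for Mcpt2, and Mcpt2 gave -0.01 with the replicate block. The spread among the lungs given 100 µg exceeded the difference between groups, and such a p does not show that the groups are equal.

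The make-up of the chymase counts changed between models. Mcpt1 and Mcpt2 together were 0 to 3.77% of the counts of Mcpt1, Mcpt2, Mcpt4 and Cma1 in the 15 libraries at 2 weeks, and Cma1 made up 69.1 to 95.9%. The mucosal share of the saline-labelled libraries at 12 weeks was 56.1, 66.7, 24.5, 62.1 and 45.9%. At 100 µg and 12 weeks it was 56.0, 0, 71.9, 77.9 and 16.7%. All 5 saline-labelled libraries and 4 of the 5 lungs given 100 µg at 12 weeks thus lay above the shares measured at 2 weeks. Of the 2-week libraries, replicate 4 of saline had 0 of only 4 chymase counts, with an exact 95% binomial interval that reached 60.2%. Replicate 2 of 100 µg at 12 weeks had 0 of 98 chymase counts from Mcpt1 and Mcpt2, with an interval that reached 3.69%. Exact binomial intervals at 95% ran from 13.8 to 38.3% in the lowest saline-labelled library and from 71.0 to 83.9% in the highest library of 100 µg.

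**Figure D2:**
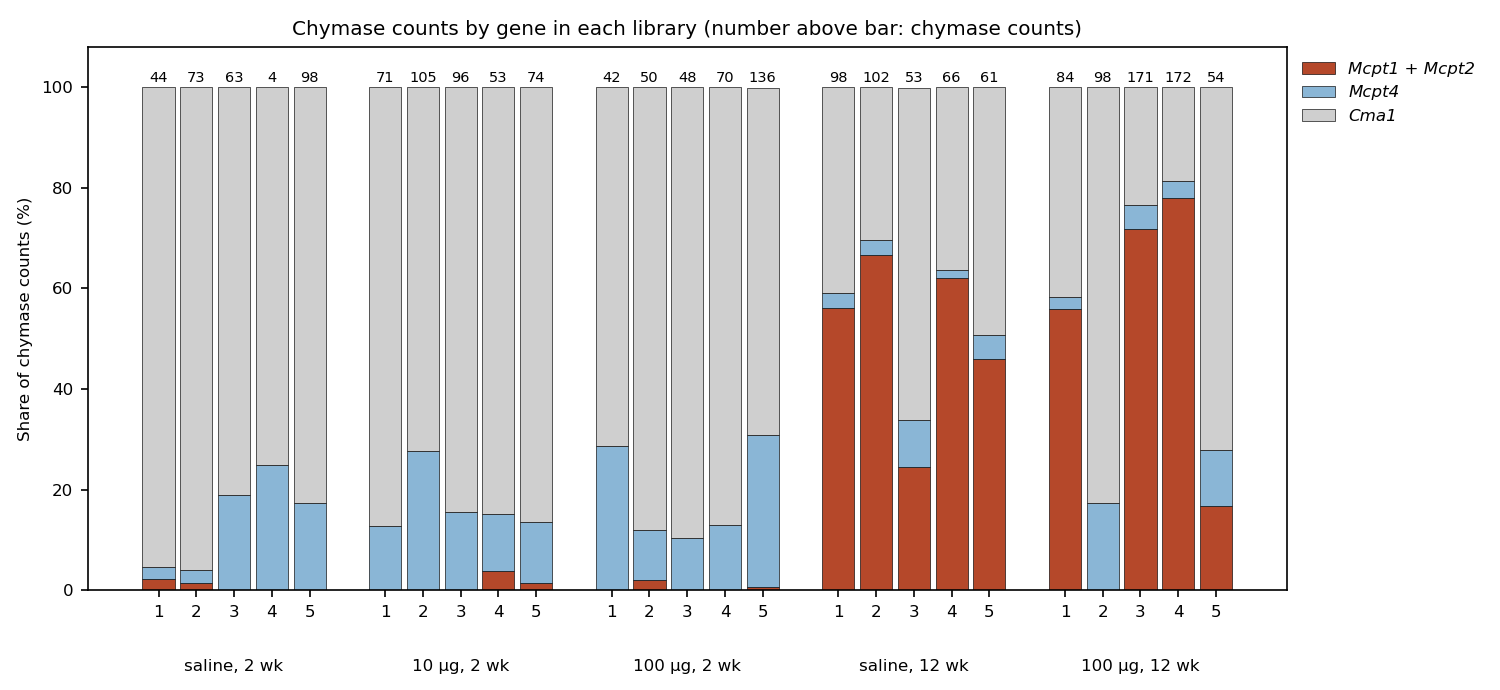
Share of chymase counts (vertical axis, %) from Mcpt1 and Mcpt2 together, Mcpt4 and Cma1 in each of the 25 libraries (horizontal axis, replicate number within group), with the number of chymase counts above each bar. The measured mucosal share is at most 3.77% at 2 weeks, where replicate 4 of saline has only 4 chymase counts, and reaches 77.9% at 12 weeks, and is 0 in replicate 2 of 100 µg at 12 weeks.

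Replicate 2 of 100 µg at 12 weeks, which lacked the mucosal proteases, had the highest level in its group of Mcpt8, Mcpt4, Cma1, Cpa3, Tpsb2 and Ms4a2. Mcpt8 was 0.565 CPM there against 0.11 to 0.188 CPM in the other 4 mice, and Cma1 was 1.91 CPM against 0.86 to 1.1 CPM. Its eosinophil marker Ccr3, the eotaxin receptor, was the lowest of the group at 8.94 CPM, with 39.7, 19.5, 28.0 and 14.3 CPM in the others. Il4, a type 2 cytokine, was also lowest there at 0.353 CPM, whereas Il13 was lower in replicate 3. What these values share with the missing proteases was not tested.

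No member was called in any comparison within a model. With 10 µg against saline at 2 weeks 0 of 7 members were called, against 0.0407% of all genes tested. With 100 µg against saline at 2 weeks the count was again 0 of 7, against 8.13% of all genes, and with 100 µg against 10 µg it was 0 of 7, against 0% of all genes. At 12 weeks 100 µg against saline gave 0 of 7 members, against 8.36% of all genes. The test of the difference between the 100 µg effects in both models gave 0 of 7 members, against 8.26% of all genes. In each of these 5 comparisons 0 members had an unadjusted p under 0.05 in edgeR, and DESeq2 and limma-voom also called 0.

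Between models some members were called, and so was much of the transcriptome. From 2 to 12 weeks in saline-labelled libraries 4 of 7 members were called, with Mcpt1 and Mcpt2 higher and Cma1 and Ms4a2 lower, against 54.1% of all genes. From 2 to 12 weeks at 100 µg 3 of 7 were called, with Mcpt1 and Mcpt2 higher and Cpa3 lower, against 38.5% of all genes. In 100 µg at 12 weeks against saline at 2 weeks 2 of 7 were called, Mcpt1 and Mcpt2, against 53.7% of all genes. A share of this size is near or below that of all genes and is not a result about the members as a group. These comparisons share groups, so their calls do not stand apart from each other.

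Cma1 encodes a chymase of connective tissue-type mast cells with elastase activity in the mouse. In saline at 2 weeks it was 1.64, 1.54, 1.77, 0.656 and 1.8 CPM, where the low value is the shallow library with 3 counts. The libraries labelled saline at 12 weeks held 1.3, 0.71, 1.15, 0.753 and 0.883 CPM. Without the shallow library the groups did not overlap, and with it they did. The fitted log2 fold change was -0.73 (SE 0.31, edgeR adjusted p = 0.0474), with means of 1.48 ± 0.473 and 0.959 ± 0.255 CPM (SD, n = 5). This call lies near the threshold and was lost without any of replicates 1, 2, 3 and 5 of saline at 2 weeks or of replicates 2, 4 and 5 of the saline-labelled group at 12 weeks, with adjusted p-values from 0.0603 to 0.106, with no filter on low counts (0.0705) and with the replicate block (0.0717). At 10 µg Cma1 was 1.33, 1.45, 2.56, 1.41 and 1.65 CPM, and at 100 µg and 2 weeks 0.883, 1.16, 1.43, 1.84 and 3.08 CPM. At 100 µg and 12 weeks it was 1.1, 1.91, 0.976, 0.86 and 1.07 CPM. These 3 groups overlapped, and 100 µg at 12 against 2 weeks gave -0.50 (SE 0.29, edgeR adjusted p = 0.184), or -0.78 without replicate 2 of 100 µg at 12 weeks (adjusted p = 0.0461).

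Mcpt4, the connective tissue-type protease nearest to Mcpt1 in sequence, kept its counts in every library. It was 0.0392, 0.0439, 0.415, 0.219 and 0.378 CPM in saline at 2 weeks and 0.193, 0.553, 0.474, 0.188 and 0.232 CPM at 10 µg. With 100 µg for 2 weeks it was 0.353, 0.132, 0.166, 0.272 and 1.34 CPM. The last of these, replicate 5, stood apart. The 12-week libraries held 0.0972, 0.0687, 0.164, 0.0314 and 0.0883 CPM when labelled saline and 0.0626, 0.4, 0.195, 0.161 and 0.165 CPM at 100 µg. Saline-labelled libraries gave a log2 fold change of -1.28 from 2 to 12 weeks (SE 0.77, edgeR adjusted p = 0.161), and these groups overlapped. While Mcpt1 went from 0 to 0.609 CPM between those groups, the mean of Mcpt4 went from 0.219 to 0.09 CPM.

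Tpsb2, a tryptase of connective tissue-type mast cells also known as mouse mast cell protease 6, was 0.235, 0, 0.45, 0 and 0.0889 CPM in saline at 2 weeks. It was 0, 0.419, 0.19, 0.219 and 0.232 CPM at 10 µg and 0.235, 0.053, 0.166, 0.483 and 1.51 CPM at 100 µg for 2 weeks. Again replicate 5 of 100 µg was far above the rest. Libraries labelled saline at 12 weeks held 0.13, 0.229, 0.164, 0.188 and 0.442 CPM, and those of 100 µg held 0.438, 0.683, 0.61, 0.269 and 0.385 CPM. In that last group 0.683 and 0.61 CPM lay above every 2-week library other than replicate 5 of 100 µg, of which the highest held 0.483 CPM. Its log2 fold change over saline at 2 weeks was 1.52 (SE 0.79, edgeR adjusted p = 0.105). That difference was not called by edgeR and was called by limma-voom, with an adjusted p of 0.0334. Without replicate 3 of saline at 2 weeks edgeR also called it, at 2.42 (adjusted p = 0.031). Tpsab1 had 0 counts in 20 libraries, and its highest count was 2.

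Cpa3 encodes the carboxypeptidase that is stored with the proteases in both mast cell types and also made by basophils. It was 0.392, 0.79, 1.21, 0.437 and 1.0 CPM in saline at 2 weeks and 0.967, 0.877, 1.23, 0.969 and 0.8 CPM at 10 µg. With 100 µg for 2 weeks it was 1.68, 0.424, 0.831, 1.3 and 3.18 CPM. This group spread most, with a mean of 1.48 ± 1.06 CPM, or 1.06 ± 0.546 CPM without replicate 5 (SD). At 12 weeks it was 1.07, 0.847, 0.493, 0.471 and 1.0 CPM in the libraries labelled saline and 0.407, 1.41, 0.732, 0.484 and 0.33 CPM at 100 µg. The 100 µg groups overlapped, and their difference from 2 to 12 weeks was -1.11 on the log2 scale (SE 0.42, edgeR adjusted p = 0.0395). It was -0.63 without replicate 5 of 100 µg at 2 weeks (adjusted p = 0.239), so the call needed that library. It was also lost without replicate 1 or 4 of the same group or replicate 1, 4 or 5 of 100 µg at 12 weeks, with adjusted p-values from 0.0507 to 0.0852, with limma-voom (adjusted p = 0.0832), and with groups compared alone (edgeR adjusted p = 0.0927). With 100 µg against saline at 2 weeks Cpa3 gave 0.84 (SE 0.43, edgeR adjusted p = 0.233).

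**Figure D3:**
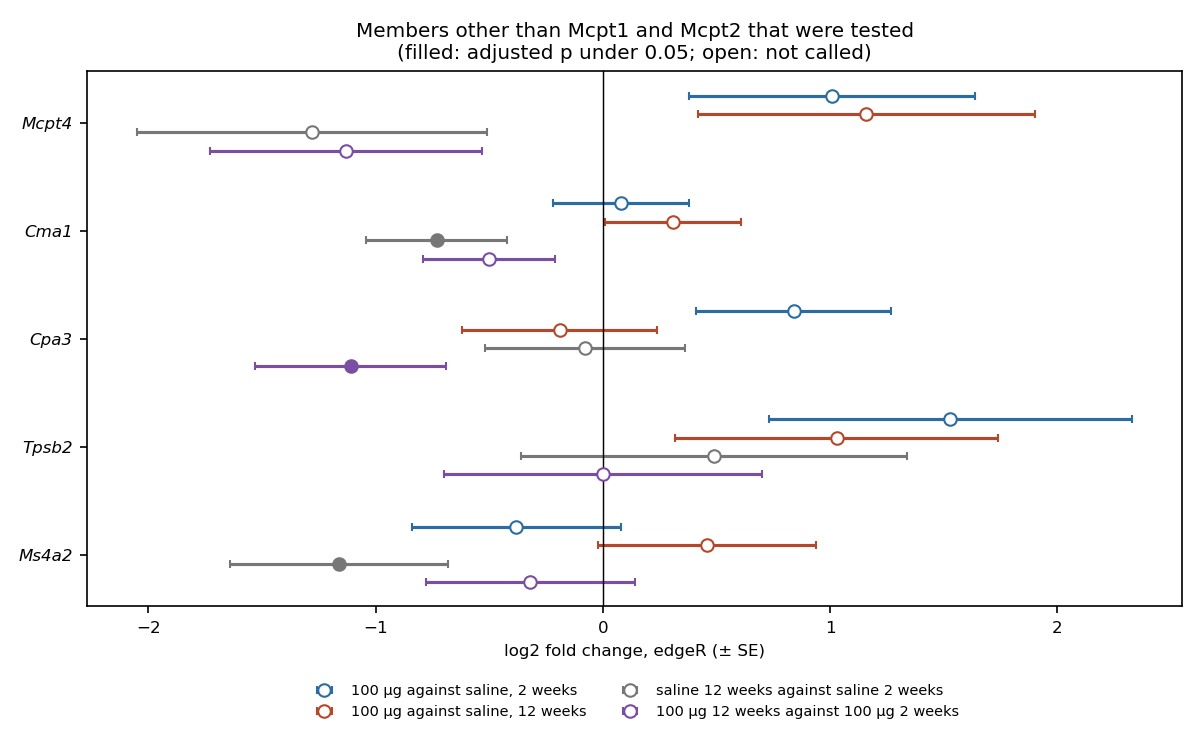
Log2 fold changes (horizontal axis, ± SE, edgeR) of the 5 tested genes other than Mcpt1 and Mcpt2 (vertical axis) in 4 comparisons, with filled points at an adjusted p under 0.05. Filled points are Cma1 at -0.73 and Ms4a2 at -1.16 between saline-labelled groups and Cpa3 at -1.11 between 100 µg groups, and all other points are open.

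The library with cartilage genes held the highest connective tissue-type levels of the series. Replicate 5 of 100 µg at 2 weeks had 1.34 CPM of Mcpt4, 1.51 of Tpsb2, 3.18 of Cpa3 and 3.08 of Cma1. The highest values among the other 24 libraries were 0.553, 0.683, 1.68 and 2.56 CPM in the same order. Cartilage and basal airway genes reached 110 counts in that library and at most 21 in any other. The receptor subunit Ms4a2 was not raised there, at 0.656 CPM. The part of large airway tissue in these levels was not tested.

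**Figure D4:**
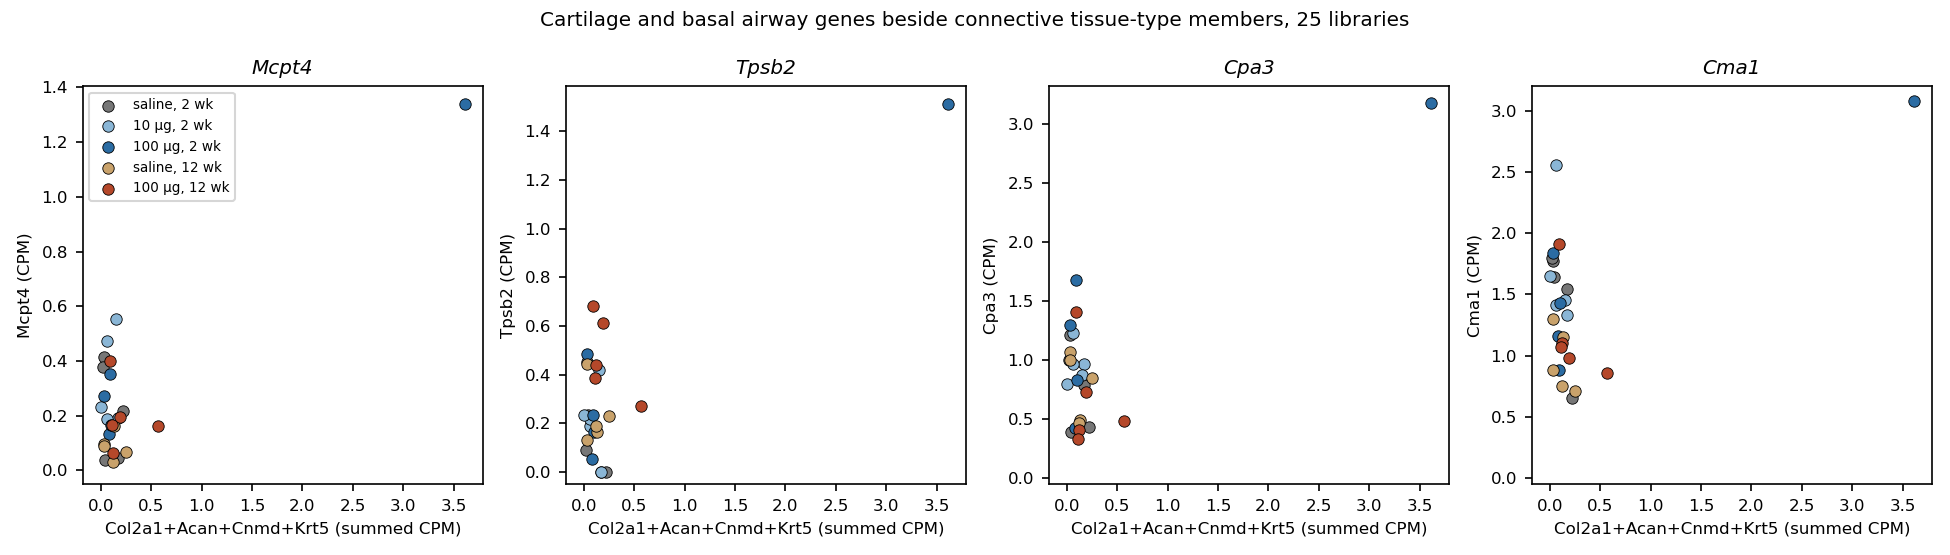
Levels of Mcpt4, Tpsb2, Cpa3 and Cma1 (vertical axes, CPM) against the summed level of Col2a1, Acan, Cnmd and Krt5 (horizontal axis, CPM), with 1 point per library in all 25 libraries. A single 2-week library of 100 µg lies at 3.61 CPM of cartilage and basal genes and is highest in all 4 panels, while the other 24 lie at or under 0.564 CPM.

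Of the IgE receptor chains, Ms4a2, the beta chain that amplifies the signal, was lower in saline-labelled libraries at 12 weeks. It was 0.901, 0.9, 1.66, 1.31 and 0.978 CPM at 2 weeks and 0.356, 0.481, 0.822, 0.44 and 0.412 CPM at 12 weeks. These groups did not overlap. The log2 fold change was -1.16 (SE 0.48, edgeR adjusted p = 0.0446), and limma-voom gave an adjusted p of 0.0595. Leaving out any of replicates 3, 4 and 5 of saline at 2 weeks or of replicates 1, 2, 4 and 5 of the saline-labelled group at 12 weeks also ended the call, with adjusted p-values from 0.0533 to 0.128, as did leaving out both doubted 2-week libraries (0.0609) and the replicate block (0.0559). Ms4a2 spread widely with extract, at 0.988, 1.81, 2.18, 0.406 and 1.24 CPM for 10 µg and 1.91, 0.424, 1.13, 0.211 and 0.656 CPM for 100 µg at 2 weeks. At 100 µg and 12 weeks it was 0.282, 1.25, 0.586, 0.538 and 0.771 CPM, which overlapped with both saline-labelled groups.

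Fcer1a, the alpha chain that binds IgE, had 1 to 14 counts per library. Its group means were 0.233 ± 0.173 CPM in saline, 0.188 ± 0.0997 at 10 µg and 0.0952 ± 0.0239 at 100 µg for 2 weeks (SD, n = 5). At 12 weeks they were 0.186 ± 0.0843 in the libraries labelled saline and 0.156 ± 0.0936 at 100 µg. In 7 two-sided exact permutation tests of log2(CPM + 0.1) the smallest p was 0.167, for 100 µg against saline and against 10 µg at 2 weeks. Such p-values do not show that the groups are equal.

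Mcpt8, the basophil granule protease, was seen in 21 libraries and in each of the 10 libraries at 12 weeks. It was 0, 0.132, 0.0346, 0 and 0 CPM in saline at 2 weeks, 0.193, 0.0191, 0.253, 0.0313 and 0 CPM at 10 µg and 0.353, 0.0265, 0.0332, 0.0302 and 0.0984 CPM at 100 µg. The libraries labelled saline at 12 weeks held 0.227, 0.16, 0.0329, 0.188 and 0.0883 CPM, and those of 100 µg held 0.125, 0.565, 0.122, 0.188 and 0.11 CPM. The highest mouse was replicate 2 of 100 µg at 12 weeks, and all 5 groups overlapped. The exact two-sided permutation test gave p = 0.0397 for the saline-labelled groups at 12 against 2 weeks and p = 0.0317 for 100 µg at 12 weeks against saline at 2 weeks. These were the 2 values under 0.05 among 21 such tests of the 3 genes left out by the filter, unadjusted, where 5 against 5 mice cannot go below 0.00794. The count of such values was 1 without any of replicates 1, 3, 4 and 5 of saline at 2 weeks or of replicates 1, 2, 4 and 5 of the saline-labelled group at 12 weeks, and it was also 1 with a pseudocount of 1 CPM. Another basophil protease, Prss34, was too low for the fit and averaged 0.0706 ± 0.0815 CPM in saline at 2 weeks (SD, n = 5). With extract for 2 weeks it averaged 0.0931 CPM at 10 µg and 0.0882 CPM at 100 µg. At 12 weeks it was lowest in the libraries labelled saline, at 0.0542 ± 0.042 CPM, and highest at 100 µg, at 0.142 ± 0.0735 CPM. In replicate 2 of 100 µg at 12 weeks, where Mcpt8 was highest, Prss34 was the lowest of its group at 0.0706 CPM.

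Known regulators and partners were read from lists chosen for mast cells and basophils. Many of their genes are also made by other lung cells, and markers of such cells moved as well. From 2 to 12 weeks in saline-labelled libraries, where 54.1% of all genes were called, 4 of 6 eosinophil markers, 4 of 5 T cell markers and 3 of 4 markers of monocyte-derived dendritic cells rose and none fell. Of the neutrophil markers 2 of 5 tested fell and 0 rose. Kit, the stem cell factor receptor of mast cells, had 18.5 CPM per kb and Gata2, a transcription factor of mast cells, 13.2 CPM per kb, far above any of the 10 genes, and lung endothelium is known to express both. The summed level of the eosinophil markers was 26.2 to 38.3 CPM in saline at 2 weeks, 66.1 to 118 CPM in the saline-labelled libraries at 12 weeks and 34.4 to 115 CPM at 100 µg and 12 weeks. The T cell markers summed to 25.1 to 34.9, 55.8 to 77.2 and 53.2 to 71.9 CPM in the same groups. Those of monocyte-derived dendritic cells summed to 60.3 to 101, 317 to 615 and 178 to 644 CPM, and Itgax, an integrin also made by alveolar macrophages, went from 52.6 to 412 and 331 CPM. The neutrophil markers summed to 49.2 to 110, 18.1 to 40.5 and 22.4 to 69.8 CPM. The part of these cells in the changes described next was not tested. In each of the 3 comparisons within 2 weeks 0 genes of these 4 lists were called by edgeR. Of all genes, 0.0407% were called with 10 µg and 8.13% with 100 µg against saline, and 0% between the doses. The highest count at an unadjusted p under 0.05 was 5 of 16, in the IgE receptor signalling list for 10 µg against saline. In that comparison 2457 of all 19654 genes tested had such an edgeR p.

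Calls between the 12-week groups, where 8.36% of all genes were called, were fragile. All 6 calls in these 4 lists, Btk, Cd200r3, Ltc4s, Srgn, Il18 and Csf2, were lost with groups compared alone and without any of replicates 1 and 2 of the saline-labelled group or replicates 2, 3 and 5 of 100 µg. Without replicate 5 of the saline-labelled group Btk and Cd200r3 were also lost, without replicate 1 of 100 µg Ltc4s, and with the replicate block Btk and Ltc4s. The edgeR adjusted p-values under these alternatives ran from 0.0502 to 0.14, and no direction turned. Over all genes this comparison gave 0 calls with groups compared alone, and 0 to 3500 without single libraries. The loss with groups compared alone is therefore not particular to these 6 genes.

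In the IgE receptor signalling list 13 of 16 genes rose and 0 fell from 2 to 12 weeks in saline-labelled libraries, against 54.1% of all genes called either way. The median log2 fold change of the list was 1.05, against 0.04 over all genes. Lat2, an adaptor of the receptor, rose by 1.83 (SE 0.16, edgeR adjusted p = 4.42e-09). Syk, the kinase that docks on the gamma chain, rose by 1.43, and Plcg2, a phospholipase that raises calcium, by 1.33. Fcer1g, the gamma chain itself, went from 26.1 ± 1.15 to 60.7 ± 5.34 CPM (SD, n = 5) while the beta chain Ms4a2 went the other way. Against saline at 2 weeks 14 of 16 rose in 100 µg at 12 weeks, with 53.7% of all genes called, and between the 100 µg groups 11 of 16 rose, with 38.5% called. None fell in either comparison. Within 12 weeks Btk, a kinase of the same pathway, was lower at 100 µg (log2 fold change -0.57, SE 0.17, edgeR adjusted p = 0.0397), a call lost under 8 of 19 alternatives.

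Of 10 tested genes in the list of identity factors and growth receptors, 8 rose and 1 fell between saline-labelled groups, against 54.1% of all genes called. Il3ra, the alpha chain of the interleukin 3 receptor, rose by 1.18 (SE 0.14), Gata1, a transcription factor shared with eosinophils, by 2.23 (SE 0.27), and Csf2rb, the shared beta chain, by 2.00 (SE 0.24). Gata2 was the gene that fell, at -0.52 (SE 0.13, edgeR adjusted p = 0.00111). With 100 µg at 12 weeks 5 rose and 1 fell against saline at 2 weeks (53.7% of all genes called), and 6 rose and 1 fell against 100 µg at 2 weeks (38.5%). Kit passed the test in none of these 3 comparisons, at 0.18 between saline-labelled groups (SE 0.10, edgeR adjusted p = 0.127).

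Cd200r3, a receptor of basophils and mast cells, was lower at 100 µg between the 12-week groups, in a call lost under 7 of 19 alternatives. It averaged 2.56 ± 1.36 CPM in the libraries labelled saline and 0.875 ± 0.503 CPM at 100 µg (SD, n = 5). The log2 fold change was -1.55 (SE 0.39, edgeR adjusted p = 0.0264). By mouse it was 3.34, 2.84, 0.986, 1.38 and 4.24 CPM in the former and 0.72, 0.588, 0.439, 1.72 and 0.908 CPM in the latter, and the groups overlapped. Mcpt8 had the opposite order of means, 0.139 against 0.222 CPM, with an exact p of 0.46.

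Of 11 tested genes for making and storing mediators, 6 rose and 1 fell between saline-labelled groups, which is near the 54.1% of all genes called and no result about the list. Cd63, a granule membrane protein, rose by 1.36 (SE 0.18), Alox5ap, which feeds leukotriene synthesis, by 0.91 (SE 0.13), and Ptgs1, a cyclooxygenase, by 0.92 (SE 0.13). Hdc, which makes histamine, was the gene that fell, at -0.72 (SE 0.15, edgeR adjusted p = 0.000206). At 10.0 CPM per kb Hdc, like Kit and Gata2, was far above any of the 10 members, and which cells made it was not tested. With 100 µg at 12 weeks 7 rose and 2 fell against saline at 2 weeks (53.7% of all genes called), and 7 rose and 0 fell against 100 µg at 2 weeks (38.5%). Within 12 weeks Ltc4s, the leukotriene C4 synthase, was higher at 100 µg (1.10, SE 0.33, edgeR adjusted p = 0.0417), and Srgn, the proteoglycan core that holds proteases in granules, was lower (-0.76, SE 0.18, edgeR adjusted p = 0.0225). These calls were lost under 8 and 6 of 19 alternatives.

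Of 9 tested cytokines that act on these cells, 5 rose and 3 fell between saline-labelled groups, against 54.1% of all genes called. Il4 went from 0.12 ± 0.095 to 1.52 ± 0.906 CPM and Tgfb1, which drives Mcpt1 in cultured mouse mast cells, rose by 1.82 (SE 0.18, edgeR adjusted p = 2.28e-08). Kitl, the stem cell factor on which mast cells depend, fell by 0.94 (SE 0.12, edgeR adjusted p = 5.78e-07). Against saline at 2 weeks 4 rose and 2 fell in 100 µg at 12 weeks (53.7% of all genes called), and between the 100 µg groups 4 rose and 1 fell (38.5%). Within 12 weeks Il18 was higher at 100 µg (1.05, SE 0.23, edgeR adjusted p = 0.0191) and Csf2 lower (-1.09, SE 0.29, edgeR adjusted p = 0.0314), and both calls were lost under 6 of 19 alternatives. In the difference of the 100 µg effects, 12 minus 2 weeks, 1 gene was called higher and 1 lower, against 8.26% of all genes. Il18 was higher, at 1.31 to 1.73 without single libraries, and lost its call under 0 of 30 alternatives. Tgfb1 was lower, at -1.05 to -0.77, and lost it under 10 of 30. That difference also uses the libraries labelled saline at 12 weeks. Il9, a mast cell growth factor, had 0 counts in all 25 libraries, and Il3 had 3 counts in all.

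**Figure D5:**
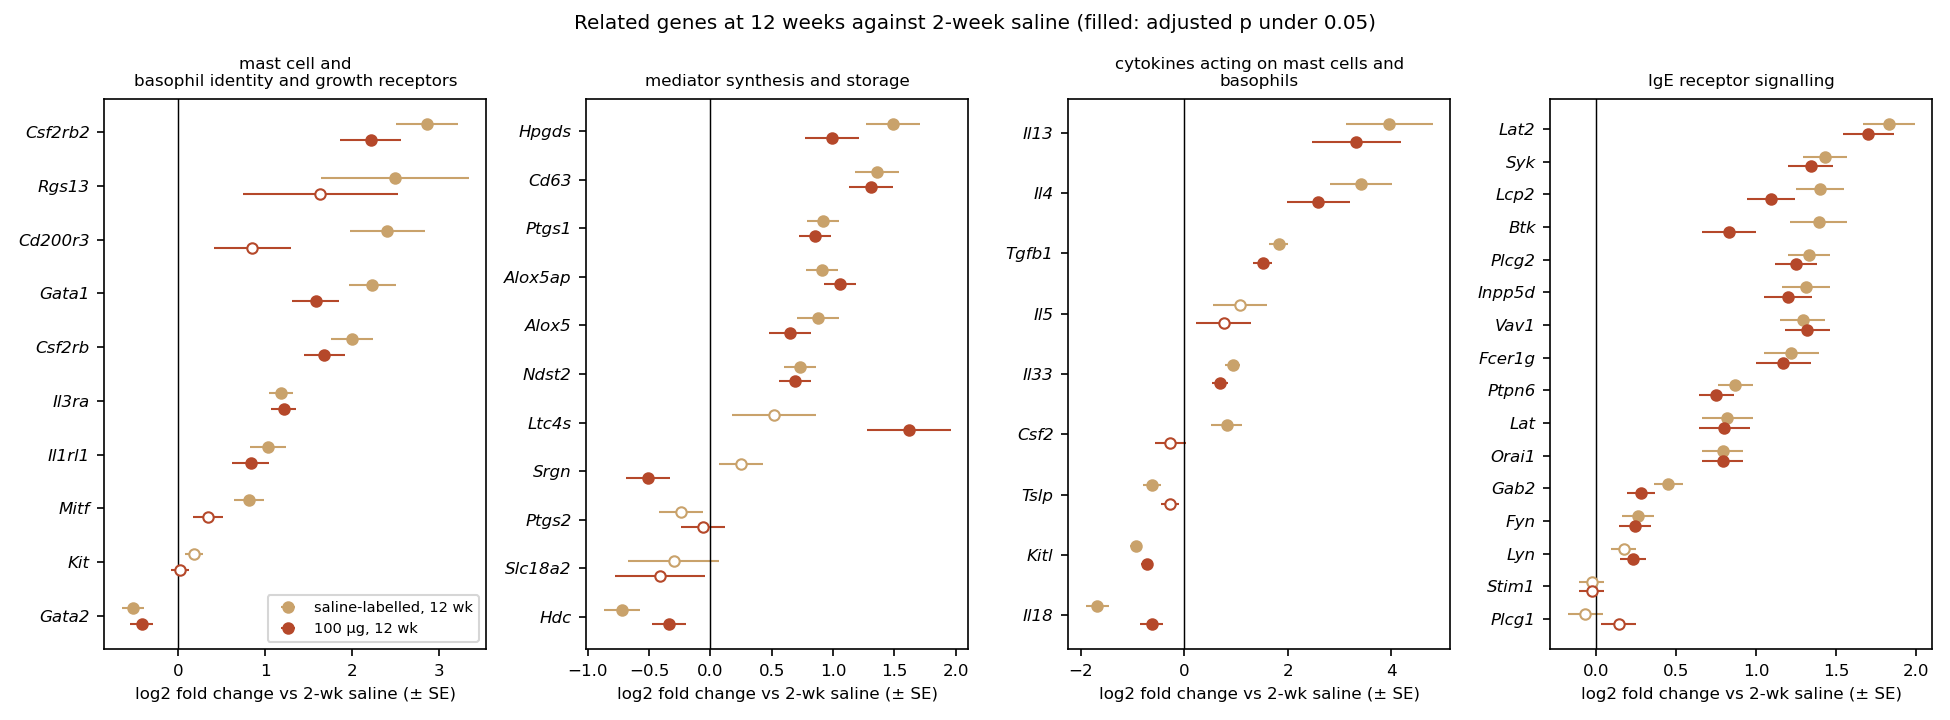
Log2 fold changes (horizontal axes, ± SE, edgeR) at 12 weeks against saline at 2 weeks for 4 lists of genes related to mast cells and basophils (vertical axes), for libraries labelled saline at 12 weeks and for 100 µg at 12 weeks, with filled points at an adjusted p under 0.05. Lat2 and Syk are to the right of 0 in both, while Gata2, Hdc and Kitl are to the left in both. The 2 series share the saline libraries at 2 weeks.

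Genes with the profile most like Mcpt1 were sought by the root mean square difference of centred log2(CPM + 0.5) values over 25 libraries. Members were left out of this search, so Mcpt2 could not appear in it. The nearest of 14333 genes were Mybl1, Mef2b, Arhgap19, Galr3 and Rnf149, at 0.365 to 0.385, against a spread of 0.706 for Mcpt1 itself. Mybl1 went from 3.82 CPM in saline at 2 weeks to 9.13 and 7.16 CPM at 12 weeks. Mcpt1 rose by at least 31.2-fold between the saline-labelled groups, a larger fold that the added 0.5 CPM flattens. For Cpa3 the nearest was Tbx18 at 0.338, against an own spread of 0.481, followed by Anks1b, Slc16a4, Rab4a and Fam110c. For Mcpt8 the nearest genes, Parp9, Blvrb, Ddx60, Mex3b and Snn, were at 0.21 to 0.214 against its own spread of 0.266. Mcpt8 was at most 0.565 CPM in any library, so the added 0.5 CPM flattens its profile. The search therefore could not show whether any gene tracked it.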

How the data were processed

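The deposited table, per the file headers, holds the authors' counts of reads per Ensembl gene, whole numbers that were not normalized, in 25 columns, and 0 columns lay outside the labels. Intact total RNA was sequenced after a stranded Illumina TruSeq total RNA preparation, per the labels' protocols. The submitters' processing notes name STAR 2.5.3a and GRCm38. Which program counted reads, on which strand and with which annotation is not given in the sources used here.

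Groups came from the title labels. The fit used all 25 libraries with edgeR 4.0.16 in R 4.3.3 (filterByExpr, trimmed mean of M values, quasi-likelihood F-test), with Benjamini-Hochberg adjustment over the 19654 genes that passed. Calls are at adjusted p-values under 0.05. Genes left out by the filter got an exact two-sided permutation test of log2(CPM + 0.1) over mice. Tested on simulated counts for the saline-labelled groups at 12 against 2 weeks, the fit recovered 73.5% of 98 changes of 1 and 92.9% of 98 changes of 2 on the log2 scale, among 19654 genes. The changed genes were drawn at random from all tested genes, so these shares do not stand for genes as low as the members. P-values measure the spread between the numbered mice, biological and technical together. Alternatives were other scalings and filters, DESeq2 1.42.0, limma-voom (limma 3.58.1), a replicate block, groups compared alone, summed paralogs and libraries left out. Leaving out both doubted 2-week libraries was added after seeing the data.

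The members, lists and tests were chosen with earlier results of these data known. All members are named, and per list and comparison up to 3 called genes with the smallest adjusted p. Kit, Gata2, Hdc, Fcer1g, Prss34, Itgax, Il3, Il4, Il9 and Il13 were named after their values were seen. Likeness was sought among genes averaging 0.5 CPM or more. Sequences came from RefSeq and GENCODE M21, and identity from alignments of Biopython 1.88.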

Additional observations from a re-analysis of the deposited data

Results flagged for a closer look

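Among 38 sets of a gene in a group with at least 10 counts, 7 had a mouse far from the other 4, by a gap over 0.71 of the group's range. For normally distributed values chance flags about 1 in 20 sets at this cut. The rate for counts as low as these was not tested, and sets share libraries, so 7 of 38 is not read as an excess.

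At 100 µg and 2 weeks, Mcpt4 was 1.34 CPM in replicate 5 (41 counts), the library with cartilage genes, against 0.132 to 0.353 CPM in the others. In the same group Mcpt8 was 0.353 CPM in replicate 1 (12 counts), against 0.0265 to 0.0984 CPM. At 100 µg and 12 weeks replicate 2, which lacked Mcpt1 and Mcpt2, stood apart in Mcpt8 at 0.565 CPM (24 counts) and in Cma1 at 1.91 CPM (81 counts). Cma1 was low at 0.656 CPM in replicate 4 of saline at 2 weeks, the shallow library with 3 counts of it, against 1.54 to 1.8 CPM. With 10 µg Cma1 was 2.56 CPM in replicate 3, against 1.33 to 1.65 CPM. Ms4a2 was 0.822 CPM in replicate 3 of the saline-labelled group at 12 weeks, against 0.356 to 0.481 CPM.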

How the results depend on the processing

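Of 1128 values of single members under alternatives, 1040 kept their direction and side of the threshold, 29 lost a call, 3 gained a call and 56 changed sign, none of them in a comparison and member called as reported. Mcpt1 and Mcpt2 were called in all 3 comparisons of 12 with 2 weeks wherever they were tested. Apart from the fit with no filter, they were tested only where their high 12-week libraries let them pass. Their calls in those filtered settings are thus no separate support. A stricter filter and groups compared alone removed both from the fit. The members called then went between saline-labelled groups from 4 to 2 and 2, between 100 µg groups from 3 to 1 and 0, and in 100 µg at 12 weeks against saline at 2 weeks from 2 to 0 and 0. The 0 between 100 µg groups also rests on Cpa3, which was tested and lost its call (adjusted p = 0.0927). Leaving out single libraries gave 2 to 4, 2 to 4 and 2 to 3 members in these comparisons. Among genes left out by the filter, 2 p-values under 0.05 became 1 with a pseudocount of 1 CPM, and 1 to 3 without single libraries. The labels' numbers do not pair the mice: of 50 same-numbered pairs across groups 7 had a correlation of deviations over 0.1 (range -0.572 to 0.421), and 4 of 25 libraries correlated best with their own number. The replicate block called 2 members in place of 4 between saline-labelled groups and ended the call of Cpa3 (adjusted p = 0.0698).

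Changes of sign, all in log2 fold changes that were not called, were as follows. With limma-voom, Cma1 gave -0.08 for 100 µg against saline and against 10 µg at 2 weeks, Mcpt1 and Mcpt2 gave 0.11 and 0.26 for 100 µg against 10 µg and -0.76 and -0.88 for 100 µg against saline at 12 weeks, and Tpsb2 gave 0.72 between 100 µg groups and Mcpt4 0.18 in 100 µg at 12 weeks against saline at 2 weeks. With the replicate block the values were -0.06 (Mcpt2) and -0.01 (Cma1) for 100 µg against 10 µg, -0.01 (Mcpt2) within 12 weeks, 0.2 (Tpsb2) between 100 µg groups and 0.12 (Mcpt4) for 100 µg at 12 weeks against saline at 2 weeks. Summed paralogs gave 0.14 for Mcpt2 with 10 µg, -0.12 for Mcpt1 with 100 µg at 2 weeks, -0.26 for Mcpt2 between doses, 0.61 for Mcpt1 in the difference of effects and 0.04 for Tpsb2 between 100 µg groups. Without both doubted libraries Cma1 gave -0.33 against saline and -0.34 against 10 µg, Mcpt4 -0.52 against 10 µg, and Tpsb2 0.61 in the difference of effects and 1.01 between 100 µg groups. Without single libraries, 10 µg against saline gave -0.09 to 1.27 for Tpsb2 and -0.11 to 0.16 for Cma1, and 100 µg against saline at 2 weeks gave -0.25 to 0.26 for Cma1. Doses at 2 weeks gave -0.78 to 0.72 for Mcpt1, -0.52 to 0.74 for Mcpt4 and -0.33 to 0.2 for Cma1. Within 12 weeks the range was -0.02 to 0.81 for Mcpt1 and 0 to 0.8 for Mcpt2. The difference of effects gave -0.3 to 1.1 for Mcpt4, -1.39 to 0.55 for Tpsb2 and -0.04 to 0.56 for Cma1. Saline-labelled groups gave -0.26 to 0.12 for Cpa3. Between 100 µg groups Tpsb2 gave -0.35 to 1.04 and Ms4a2 -0.69 to 0.17, and against saline at 2 weeks Mcpt4 at 100 µg and 12 weeks gave -0.59 to 0.31.

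Counts over all genes varied more. For 10 µg against saline the 8 calls became 0 to 57 without single libraries, 2 with DESeq2 size factors or no filter, 3 with upper-quartile scaling, 202 with the DESeq2 test and 0 with limma-voom or groups alone. For 100 µg against saline at 2 weeks the 1597 became 723 with no filter, 244 with groups alone, 808 without both doubted libraries, and 611 to 2085 without single libraries. At 12 weeks the 1644 became 2931 with DESeq2, 3072 with limma-voom, 0 with groups alone and 0 to 3500 without single libraries. For the difference of effects the 1624 became 919 with no filter, 2459 with DESeq2, 978 with groups alone and 777 to 2602 without single libraries. DESeq2 called 1 gene in place of 0 for 100 µg against 10 µg. The cause was not tested. Counts of 0 to 97 per library and gene limit what can be seen of all 10 genes.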
